A study of Saccharomyces cerevisiae with 27 samples.

Results

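The hexose transporter genes HXT1, HXT2, HXT3, HXT4, HXT5 and HXT10 and the glucose sensing genes SNF3, RGT2, MTH1 and STD1 of budding yeast are described here across strains that differ in cohesin regulators. The 10 genes were taken by the platform's gene symbol. Each had exactly 1 probe set, so they make up 10 of the 5716 probe sets tested, out of 5814 in the table. The rule itself used gene symbols only, but the members were chosen with earlier results of these data known. Expression was measured on 27 Affymetrix arrays, in 9 groups of 3 replicate cultures grown at 30 °C to exponential phase in rich medium with an added amino acid mix (YPD+CSM). The labels give no culture density and no glucose concentration.

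Wild type (labelled w303a), the eco1-W216G mutant and a fob1 deletion were grown on a later date. On an earlier date the same fob1 deletion strain was grown again, together with the eco1-W216G fob1 deletion double mutant, the rad61 deletion, the eco1-W216G rad61 deletion double mutant, an mcd1 mutant that expresses REC8 from the MCD1 promoter, and this last genotype with a fob1 deletion added. Eco1 acetylates cohesin so that sister chromatids stay joined, Fob1 stalls replication forks in the ribosomal DNA, Rad61 (Wapl in other species) releases cohesin from chromosomes, and Rec8 takes the place of Mcd1 in meiotic cohesin. Each genotype carries a single strain ID, so different isolates of a genotype were not compared. No wild type was grown on the earlier date.

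Yeast takes up glucose by facilitated diffusion through the hexose transporter family. Hxt1 and Hxt3 are low-affinity carriers used when glucose is plentiful, Hxt2 and Hxt4 are high-affinity carriers used when it is scarce, Hxt5 is linked to slow growth and stress, and Hxt10 is little expressed in growing cells. Snf3 and Rgt2 resemble transporters but act as sensors of low and high glucose. Their signal leads to the breakdown of Mth1 and Std1, a pair of related corepressors that hold HXT genes off together with the repressor Rgt1. The kinase Snf1 and the repressor Mig1 form a second glucose pathway, which shuts genes such as HXT2, HXT4 and MTH1 in glucose.

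The values are log2 of the authors' normalized intensity, on which a difference of 1 is a change by a factor of 2. Differences between groups are given ± the standard error (SE) of limma's test, with n = 3 cultures per group throughout. A gene is said to rise or fall where the p-value adjusted by Benjamini-Hochberg over all 5716 probe sets is under 0.05. Probe sets bind with different strength, so levels are compared between strains for the same gene and not between genes. HXT6 and HXT7 are near-identical. The array lists 1 probe set for the pair under HXT7, with a name ending that marks sharing, while none of the 10 member probe sets has such an ending.

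The ECO1, FOB1 and RAD61 signals went with the labels, while MCD1 and REC8 were not looked at. Group means of the ECO1 probe set ran from 4.61 to 4.92 with eco1-W216G and from 7.85 to 8.10 otherwise, although the labels give this allele as an amino acid change and do not say how it was made. FOB1 ran from 3.84 to 4.22 where it was deleted and from 9.25 to 9.91 otherwise, and RAD61 read 3.77 and 3.93 where deleted and 6.80 to 7.29 otherwise. Of the 6 markers of the MATa haploid that w303a names, BAR1 was low on every array (3.91 to 4.18), and the other 5 had their lowest array at 9.02 or above. Of the 4 markers of the opposite mating type, MF(ALPHA)1 lay between 3.97 and 4.98, MF(ALPHA)2 between 5.66 and 6.45 and STE3 between 5.45 and 7.29, while SAG1 was not low, at 9.18 to 10.08. In summed intensity the MATa list ran from 38638 to 48253 over the 27 arrays, the 4 MATalpha markers from 711 to 1239 and the 6 sporulation markers from 697 to 1171. Correlations within groups ran from 0.986 to 0.998. Replicate 2 of the rad61 deletion was higher over chromosome IX by a median of 0.82 (187 of 191 genes), and 0 of the 10 members lie there. Replicate 2 of the later fob1 deletion stood apart in several of the members, as described below.

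**Figure D1:**
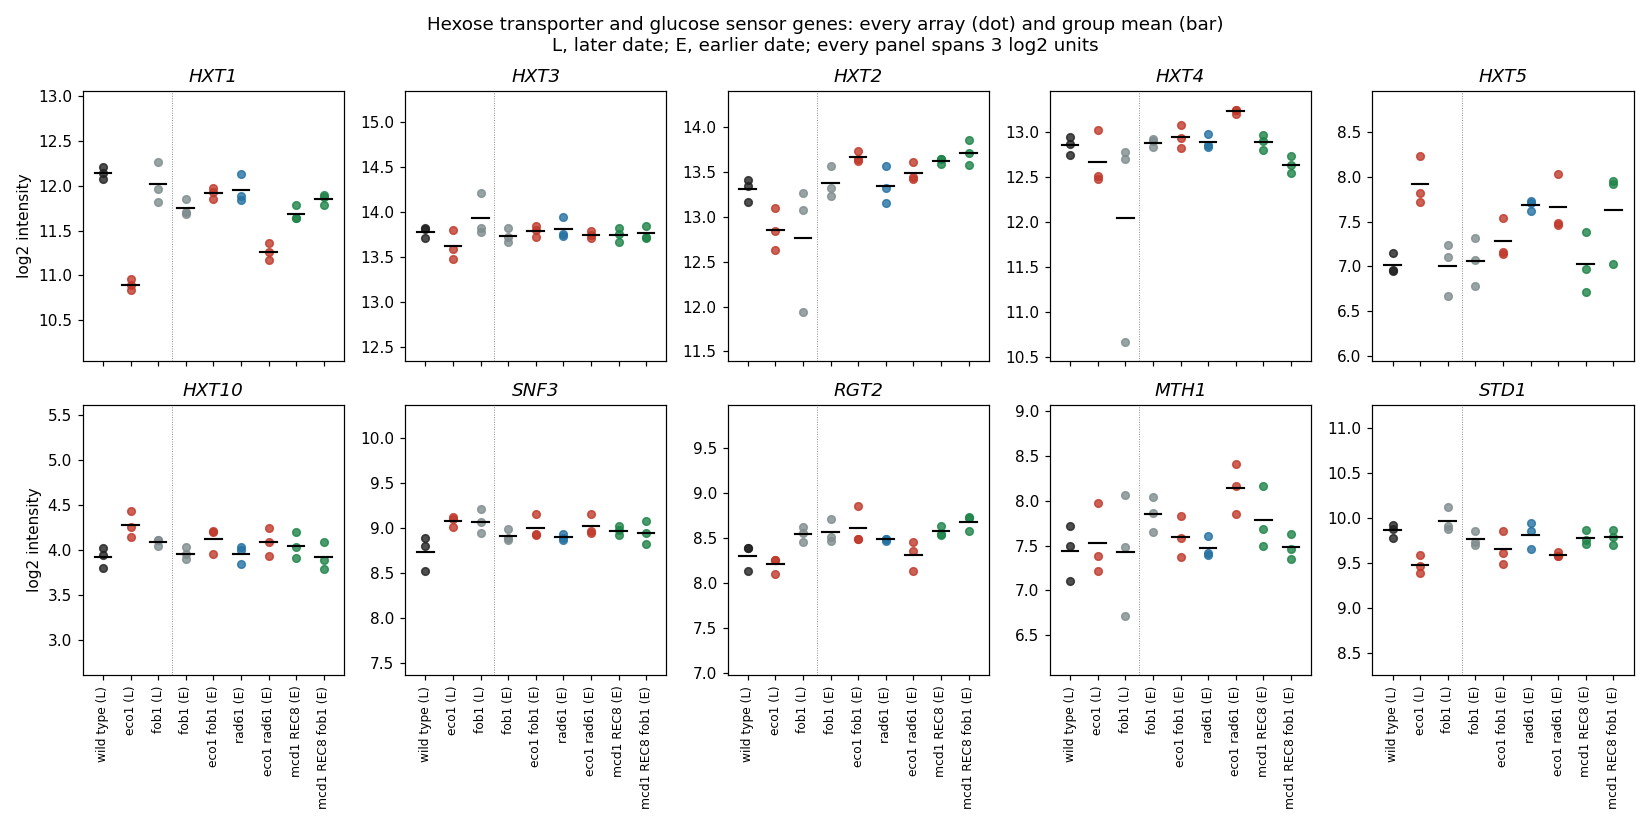
Log2 intensity of each member (vertical axis, 3 log2 units in every panel) in the 9 groups (horizontal axis, L for the later and E for the earlier date), with a dot per array and a bar for the group mean. HXT1 was lowest in eco1-W216G and next lowest in the eco1 rad61 double mutant, while HXT3 spanned 0.31 log2 units between its highest and lowest group mean.

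HXT1, the low-affinity transporter of high glucose, had the widest span of group means among the members, 1.24 log2 units. It read 12.07, 12.20 and 12.14 in the wild-type cultures and 10.96, 10.84 and 10.89 in eco1-W216G. Every mutant culture was below every wild-type culture. HXT1 thus fell in eco1-W216G, with a difference of -1.24 ± 0.09 (2.37-fold lower, adjusted p = 4.45e-10). In RNA from whole cultures, fewer expressing cells and less RNA per cell cannot be told apart. In the ranking of all 5716 probe sets from the most negative difference upward it stood at place 14.

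Without RAD61 the fall of HXT1 was smaller. It read 11.84, 12.13 and 11.88 in the rad61 deletion and 11.26, 11.37 and 11.17 in the eco1 rad61 double mutant, again with no overlap. The difference was -0.69 ± 0.09 (1.61-fold lower, adjusted p = 5.39e-05), place 16 from the most negative. The change differed from that in the wild-type background by 0.56 ± 0.13 (adjusted p = 0.00388), with a 95% interval from 0.29 to 0.83. Both interactions reported here use the same wild-type and eco1-W216G arrays. The change in the wild-type background was measured only on the later date and the changes without RAD61 or FOB1 only on the earlier one, so a dependence of the change on the background and on the date cannot be told apart.

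Without FOB1, HXT1 was not lower with eco1-W216G. It read 11.70, 11.69 and 11.85 in the earlier fob1 deletion and 11.86, 11.93 and 11.97 in the eco1 fob1 double mutant. The double mutant cultures lay above those of the single mutant by a narrow margin, with a difference of 0.17 ± 0.09 (adjusted p = 0.523, 95% interval -0.02 to 0.36). The change differed from that in the wild-type background by 1.41 ± 0.13 (adjusted p = 5.62e-08), place 9 from the most positive among all probe sets. The double mutants also differed directly within the earlier date, where HXT1 was lower without RAD61 than without FOB1 by -0.65 ± 0.09 (adjusted p = 0.000146).

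The order of the HXT1 group means ran from wild type (12.14 ± 0.07, SD) through the later fob1 deletion (12.02 ± 0.23), the rad61 deletion (11.95 ± 0.16), the eco1 fob1 double mutant (11.92 ± 0.06), the mcd1 REC8 fob1 strain (11.85 ± 0.06), the earlier fob1 deletion (11.75 ± 0.09) and the mcd1 REC8 strain (11.69 ± 0.08) to the eco1 rad61 double mutant (11.26 ± 0.10) and eco1-W216G (10.90 ± 0.06). The last 3 groups in this order were separated from one another by gaps larger than the SD of either neighbour and with no overlap of arrays. Of the 6 gaps above them, those below the eco1 fob1 double mutant and below the mcd1 REC8 fob1 strain also exceeded the larger SD, but the arrays overlapped. The fob1 deletion itself differed between the dates by -0.27 ± 0.09 (earlier minus later, adjusted p = 0.094). This difference was -0.14 without later replicate 2 and -0.37 without later replicate 1 (adjusted p = 0.0247). The ranking of groups across dates is therefore uncertain at about these sizes.

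**Figure D2:**
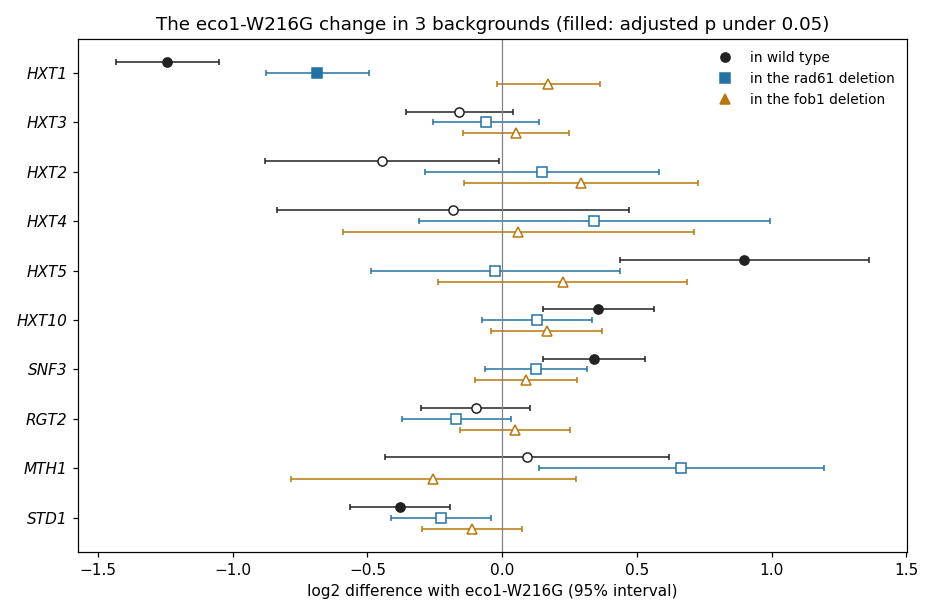
Log2 difference made by eco1-W216G (horizontal axis, with the 95% interval of limma's test) for each member in wild type, in the rad61 deletion and in the fob1 deletion, with filled marks where the adjusted p is under 0.05. The HXT1 values are -1.24, -0.69 and 0.17, and HXT5, HXT10, SNF3 and STD1 carry a filled mark in the wild-type background alone.

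HXT3, the other low-affinity transporter and a gene also induced by glucose, had the narrowest span of group means. Wild-type cultures read 13.83, 13.81 and 13.71 and eco1-W216G cultures 13.80, 13.59 and 13.48, with overlapping values and a difference of -0.16 ± 0.09 (adjusted p = 0.164, 95% interval -0.36 to 0.04). Without eco1-W216G replicate 1 the difference was -0.25 (adjusted p = 0.0434). In the rad61 and fob1 backgrounds the eco1-W216G differences were -0.06 ± 0.09 and 0.05 ± 0.09, with adjusted p-values of 0.745 and 0.911. None of the 8 gaps between neighbours in its order of group means exceeded the larger SD of the pair. The array with the highest value, 14.21, was replicate 2 of the later fob1 deletion.

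The high-affinity transporter genes were set apart by this same culture. HXT2 read 13.27, 11.94 and 13.07 in replicates 1 to 3 of the later fob1 deletion, against 13.40, 13.34 and 13.17 in wild type. HXT4 read 12.78, 10.67 and 12.71 against 12.75, 12.95 and 12.87. Replicate 2 was thus far below the other replicates of its own group for both genes.

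Measured against the mean of the other replicates of its group, replicate 2 was lower by -2.08 for HXT4, -1.22 for HXT2, -1.31 for the HXT6 and HXT7 probe set and -1.06 for MTH1, the corepressor gene. It was higher by 0.41 for HXT3, 0.37 for HXT1 and 0.23 for STD1, the other corepressor gene. The sensors hardly moved, at -0.01 for SNF3 and 0.02 for RGT2. HXT4 held place 3 among all 5716 probe sets from the most negative deviation on this array, where 88 probe sets (1.54%) deviated by 1 or more in either direction. The same array had the highest summed intensity of 10 stress markers in its group, 27511, against 18143 and 12723 in replicates 1 and 3, and its part in the result was not tested. No outlier test was made in groups of 3, and these values describe a single culture.

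**Figure D3:**
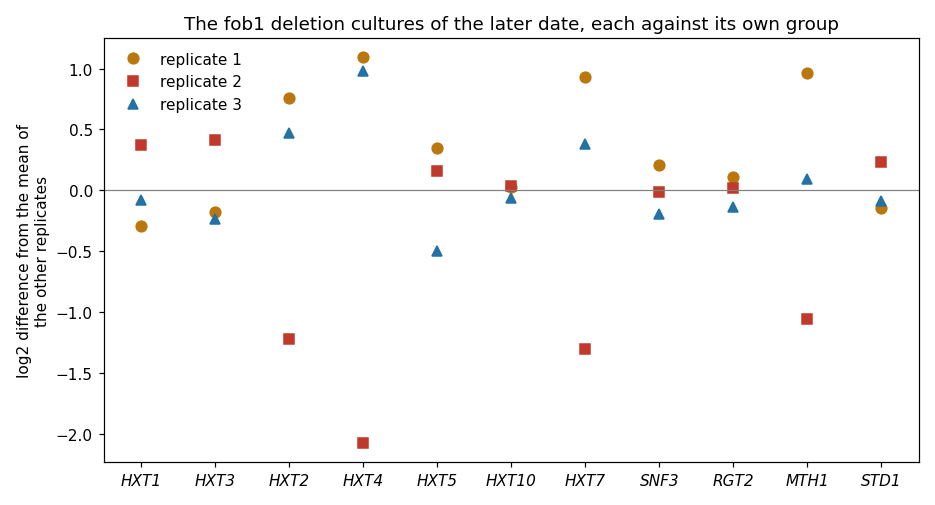
Log2 difference of each later-date fob1 deletion array from the mean of the other replicates (vertical axis) for the members and for the HXT6 and HXT7 probe set, labelled HXT7 (horizontal axis). Replicate 2 lay at -2.08 for HXT4 and at or below -1.06 for HXT2, HXT7 and MTH1, while HXT1, HXT3 and STD1 lay above 0.

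The comparison of the later fob1 deletion with wild type carries this culture. HXT4 had a difference of -0.80 ± 0.31 and HXT2 of -0.54 ± 0.21, with adjusted p-values of 0.0837 and 0.0795. Without replicate 2 the differences were -0.11 and -0.13, with adjusted p-values of 0.579 and 0.548. HXT1 was at -0.12 (adjusted p = 0.382) and passed in 1 of 14 alternative settings and omissions. That was without both this replicate 2 and rad61 replicate 2, at -0.25 (adjusted p = 0.0334). SNF3, the sensor of low glucose, was the 1 member of 10 that changed, upward, where 15.6% of all probe sets did, 8.73% up and 6.91% down. It read 8.89, 8.80 and 8.52 in wild type and 9.21, 9.06 and 8.94 in the fob1 deletion, with no overlap, and rose by 0.33 ± 0.09 (adjusted p = 0.0172). That call was lost without wild-type replicate 3 (adjusted p = 0.14), the lowest SNF3 array, without fob1 replicate 1 (adjusted p = 0.0857) and with only the arrays compared (adjusted p = 0.157).

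In eco1-W216G against wild type 5 of the 10 members changed, 3 up and 2 down, where 53.6% of all probe sets changed, 23.7% up and 30.0% down. The share is near the background and is no result about the family. The median difference of the members was -0.13, and that of all probe sets -0.05. Besides HXT1 the changed members were HXT5, HXT10, SNF3 and STD1, with absolute differences of 0.90 or less.

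HXT5, the transporter gene linked to slow growth and stress, rose. It read 6.95, 7.15 and 6.96 in wild type and 8.23, 7.81 and 7.71 in eco1-W216G, with no overlap, a difference of 0.90 ± 0.22 (1.86-fold, adjusted p = 0.0019). Without RAD61 the difference was -0.03 ± 0.22 (adjusted p = 0.964). The rad61 deletion by itself read 7.71, 7.72 and 7.62, on the earlier date, which had no wild type to compare it with. The change differed from that in the wild-type background by -0.92 ± 0.32 (adjusted p = 0.0371). That interaction lost its call in 9 of 19 alternative settings and omissions, up to an adjusted p of 0.113 when quantile normalization, already a step of the deposited values, was repeated. Without FOB1 the difference was 0.22 ± 0.22 (adjusted p = 0.813), and the interaction of -0.67 ± 0.32 had an adjusted p of 0.0945.

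HXT5 also lay high in some strains without eco1-W216G. It was higher in the rad61 deletion than in the earlier fob1 deletion by 0.63 ± 0.22, with no overlap of arrays but an adjusted p of 0.779. In the mcd1 REC8 fob1 strain it read 7.92, 7.03 and 7.95, so replicate 2 was lower than the others by -0.90, and the mcd1 REC8 strain read 6.97, 6.72 and 7.38. None of the 8 gaps in its order of group means exceeded the larger SD of the neighbours.

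The stress markers (HSP12, HSP26, CTT1, DDR2, GPH1, SOL4, TPS2, TFS1, PNC1 and ALD3) moved with HXT5 in eco1-W216G. All 10 of them rose there and 0 fell, where 23.7% of all probe sets rose and 30.0% fell. The list was chosen with earlier results of these data known, so this count is a description and no independent result. The median was 2.02, with HSP26, a small heat shock protein gene, at 4.42 and DDR2 at 3.25. Their summed intensity ran from 10909 to 13255 in wild type and from 61909 to 65058 in eco1-W216G. In the rad61 deletion it ran from 17866 to 23865 and in its double mutant from 34253 to 35886, while HXT5 stayed at 7.68 and 7.66. In the earlier fob1 deletion it ran from 16539 to 18978 and in its double mutant from 19237 to 21696. Their part in the HXT5 and HXT1 values was not tested.

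HXT1, HXT4 and HXT5 are neighbours on chromosome VIII in the R64 gene table, with 1 gene between HXT4 and HXT1 and none between HXT1 and HXT5. Across eco1-W216G and wild type HXT1 fell and HXT5 rose, while HXT4 had a difference of -0.18 ± 0.31 (adjusted p = 0.638). The HXT4 cultures read 12.75, 12.95 and 12.87 in wild type and 13.02, 12.52 and 12.48 in eco1-W216G, with overlap. The neighbours therefore had differences of opposite sign in the same cultures.

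HXT10 rose by 0.36 ± 0.10 in eco1-W216G (adjusted p = 0.00439), from 4.02, 3.95 and 3.81 to 4.26, 4.15 and 4.44. All 27 arrays lay between 3.79 and 4.44 for it. These are low values on the scale of these arrays. Whether HXT10 was above background was not tested, so its call is one of signal and the size of its change is uncertain.

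Among the sensors, SNF3 rose in eco1-W216G by 0.34 ± 0.09 (adjusted p = 0.00334), with 9.13, 9.09 and 9.01 against the wild-type values given above. Its differences were 0.13 ± 0.09 without RAD61 and 0.09 ± 0.09 without FOB1 (adjusted p-values 0.42 and 0.82), but neither interaction passed the test (adjusted p = 0.235 and 0.124), so SNF3 was not shown to respond differently. Wild type was the lowest of the 9 groups for SNF3, at 8.74 ± 0.19 (SD), and no gap in its order exceeded the larger SD. RGT2, the sensor of high glucose, read 8.39, 8.38 and 8.13 in wild type and 8.25, 8.10 and 8.26 in eco1-W216G, a difference of -0.10 ± 0.10 (adjusted p = 0.403). In the eco1 rad61 double mutant RGT2 was at -0.30 ± 0.10 relative to the eco1 fob1 double mutant (adjusted p = 0.0824). It passed in 2 of 12 alternative settings and omissions. The adjusted p ran from 0.0275, with quantile normalization repeated, up to 0.378.

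Of the corepressor genes, STD1 fell in eco1-W216G by 0.38 on the log2 scale (SE 0.09, adjusted p = 0.00124), from 9.88, 9.93 and 9.78 to 9.39, 9.47 and 9.59, with no overlap. Its difference was -0.23 ± 0.09 without RAD61 and -0.11 ± 0.09 without FOB1 (adjusted p-values 0.13 and 0.734), and the interactions of 0.15 and 0.27 did not pass (adjusted p = 0.41 and 0.0987). MTH1 read 7.72, 7.49 and 7.10 in wild type and 7.98, 7.39 and 7.22 in eco1-W216G, with overlap and a difference of 0.09 ± 0.25 (adjusted p = 0.775). The SD within groups had a median of 0.27 for MTH1 and 0.08 for STD1, so the replicates of MTH1 were the more spread.

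MTH1 was highest in the eco1 rad61 double mutant. It read 8.40, 8.16 and 7.86 there and 7.61, 7.42 and 7.40 in the rad61 deletion, with no overlap, a difference of 0.67 ± 0.25 and an adjusted p of 0.121. With replicate number as a block shared by all 9 groups, the adjusted p was 0.0154. That was the 1 of 13 alternative settings and omissions in which MTH1 passed, and the adjusted p ran up to 0.321 in the others. HXT4 was also highest in this double mutant, at 13.21, 13.25 and 13.25 against 12.86, 12.98 and 12.84, a difference of 0.34 ± 0.31 with an adjusted p of 0.545. The shared SE of HXT4 holds the later fob1 replicate 2. Without that array and rad61 replicate 2 the HXT4 difference was 0.39 with an adjusted p of 0.0269. In the main model the HXT4 interaction with the rad61 deletion was 0.53 with an adjusted p of 0.416. That interaction passed in 2 of 20 alternative settings and omissions, and was 0.57 with an adjusted p of 0.00974 without both arrays.

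HXT2 was lower in eco1-W216G than in wild type in every culture, at 13.10, 12.84 and 12.62 against the values above, but the difference of -0.45 ± 0.21 had an adjusted p of 0.0768. Its shared SE also holds the later fob1 replicate 2. A model of the compared arrays alone gave an adjusted p of 0.0129. Leaving out eco1-W216G replicate 1 gave 0.0479, and the adjusted p ran up to 0.249 without eco1-W216G replicate 3. It was 0.29 ± 0.21 in the fob1 background and 0.15 ± 0.21 in the rad61 background, with adjusted p-values of 0.699 and 0.722. The interaction with the fob1 deletion, 0.74 ± 0.30, had an adjusted p of 0.0521 and passed in 6 of 19 alternative settings and omissions, down to an adjusted p of 0.0036 with only the arrays compared. HXT2 was highest in the mcd1 REC8 fob1 strain (13.71 ± 0.14, SD).

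In the remaining comparisons few members changed. With eco1-W216G in the rad61 deletion 1 of 10 members changed, HXT1, downward, against 6.72% of all probe sets (5.18% up and 1.54% down). In the fob1 deletion 0 of 10 did against 0.787% (0.490% up and 0.297% down), with 0 members also at an unadjusted p under 0.05 by limma. The eco1 rad61 double mutant differed from the eco1 fob1 double mutant in 1 of 10, HXT1, lower, against 4.97% (3.43% up and 1.54% down). The interaction with the fob1 deletion held 1 of 10, HXT1, with a positive sign, against 39.2% (21.2% positive and 18.0% negative). That with the rad61 deletion held 2 of 10, HXT1 positive and HXT5 negative, against 23.5% (11.8% positive and 11.6% negative).

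The comparisons of strains without eco1-W216G on the earlier date gave 0 of 10 members each by limma. The rad61 deletion against the fob1 deletion called 0.0350% of all probe sets, 0.0175% in each direction, with 2 members at an unadjusted p under 0.05. The mcd1 REC8 fob1 strain against the fob1 deletion called 0.297% (0.0875% up and 0.210% down), and against the mcd1 REC8 strain 0.0175% (0% up and 0.0175% down), each with 1 member at an unadjusted p under 0.05. In each of them the member with the largest difference was HXT5, at 0.63, 0.58 and 0.61. The same fob1 deletion strain on the earlier against the later date also gave 0 of 10, against 4.81% (1.82% up and 2.99% down), with 5 members at an unadjusted p under 0.05. There HXT4 was at 0.83 and HXT2 at 0.61, and without the later replicate 2 at 0.14 and 0.20.

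**Figure D4:**
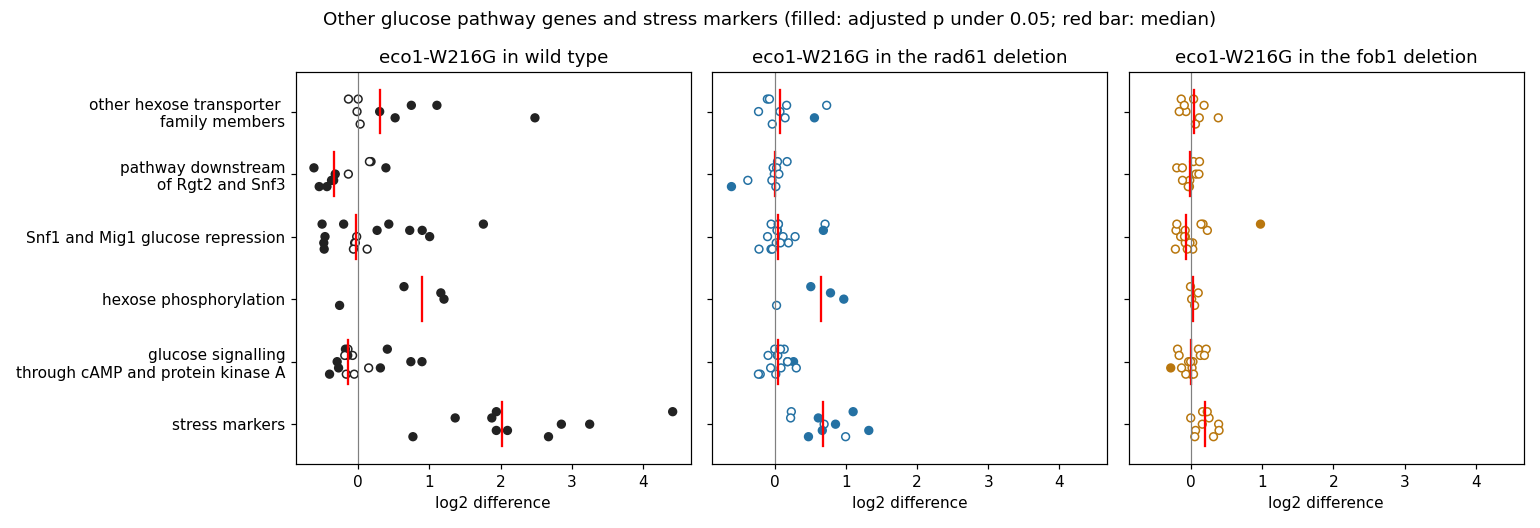
Log2 difference made by eco1-W216G (horizontal axis) for the genes of 6 lists (rows) in wild type, in the rad61 deletion and in the fob1 deletion (panels), with a dot per gene, filled where the adjusted p is under 0.05, and a red bar for the list's median. The stress markers have medians of 2.02, 0.68 and 0.19 and hexose phosphorylation 0.90, 0.65 and 0.03.

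Of 9 further members of the transporter family with a probe set, 5 rose, 0 fell and 4 did not pass in eco1-W216G, with a median of 0.30 beside -0.05 for all probe sets. The share that changed is near the 53.6% of all probe sets (23.7% up) and is no result about the family. The median is the value of the HXT13 probe set, which read 3.90 in wild type and 4.20 in eco1-W216G, as low as HXT10. Its name and those of the HXT15 and HXT17 probe sets also end in a way that marks sharing. HXT9 rose by 2.48 ± 0.13, from 7.32 to 9.80, and the similar gene HXT11 by 1.10 ± 0.15. A second HXT9 probe set, whose name marks it as shared, gave 1.45, so the signals of such related genes cannot be kept wholly apart. The HXT6 and HXT7 probe set, for high-affinity carriers, rose by 0.75 ± 0.22 (adjusted p = 0.0081). It read 12.91, 13.15 and 13.01 in wild type and 13.98, 13.84 and 13.50 in the mutant, with no overlap. In the rad61 background its difference was 0.73 ± 0.22 (adjusted p = 0.053), and in the fob1 background -0.10 ± 0.22 (adjusted p = 0.936).

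In the rad61 background HXT9 rose by 0.56 and was the 1 of 9 that changed, against 6.72% of all probe sets. The second HXT9 probe set was at 0.11 there (adjusted p = 0.708), so it did not show this rise. In the fob1 background 0 of 9 changed, against 0.787%. The interactions were lower for 5 of 9 without FOB1 and for 3 of 9 without RAD61, where they were for 18.0% and 11.6% of all probe sets. HXT9 stood at -2.10 and -1.92, and its second probe set at -1.26 and -1.33. HXT9 and HXT1 thus had large interactions of opposite sign.

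The genes of hexose phosphorylation, the step after uptake, changed in eco1-W216G. HXK1, a hexokinase gene repressed by glucose, rose by 1.20 ± 0.14, the glucokinase gene GLK1 by 1.16 ± 0.17 and EMI2, a gene related to glucokinase, by 0.64 ± 0.11. HXK2, the main hexokinase of cells growing on glucose, fell, at -0.26 ± 0.06 (adjusted p = 0.0017). All 4 genes of the list changed, where 53.6% of all probe sets did.

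The first 3 of these rose without RAD61 as well, with HXK1 at 0.97, GLK1 at 0.78 and EMI2 at 0.51, where 5.18% of all probe sets rose. They also rose in the fob1 deletion against wild type, with HXK1 at 0.55, where 8.73% of all probe sets did. In the fob1 background 0 of 4 changed with eco1-W216G, against 0.787% of all probe sets. All 4 interactions with the fob1 deletion passed, with HXK1 at -1.20, where 39.2% of all probe sets passed. With the rad61 deletion only the interaction of HXK2 passed, at 0.29 (adjusted p = 0.025), against 23.5% of all probe sets.

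Of 10 genes of the pathway downstream of the sensors, 6 fell and 2 rose in eco1-W216G, with a median of -0.34, where 30.0% of all probe sets fell and 23.7% rose. CYC8, a subunit of the general corepressor that acts with Rgt1 and Mig1, was at -0.62, MIG3, a repressor related to Mig1, at -0.55, and YCK2, a casein kinase that acts with the sensors, at -0.44. SKP1, a subunit of the ubiquitin ligase that marks Mth1 and Std1, rose by 0.39. Without RAD61 MIG3 was the 1 of 10 that changed, at -0.61, and without FOB1 0 of 10 did, against 6.72% and 0.787% of all probe sets.

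Of 16 genes around Snf1 and Mig1, 6 rose and 5 fell in eco1-W216G, with a median of -0.03, a share near the 53.6% of all probe sets. Those with the largest differences were activators of genes for growth without glucose, ADR1 at 1.76, SIP4 at 1.00 and CAT8 at 0.90, and the repressor NRG1 at 0.72. ADR1 was the 1 of 16 that changed in the fob1 background, at 0.97, against 0.787% of all probe sets. CAT8 was the 1 of 16 in the rad61 background, at 0.68, against 6.72%. Of 15 genes of glucose signalling through cAMP and protein kinase A 4 rose and 5 fell in eco1-W216G, again near that share, with PDE1, a cAMP phosphodiesterase, at 0.90, the kinase gene RIM15 at 0.74, BCY1, the inhibitory subunit of the kinase, at 0.41 and RAS1 at -0.40.

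The genes most like HXT1 over the 27 arrays, by Pearson's correlation of log2 intensity, were HMS2 (r = 0.88), SAP190 (r = 0.87) and YLR285C-A (r = 0.86). For HXT4 they were IMD2 (r = 0.87), YHM2 (r = 0.85) and COR1 (r = 0.83), and without replicate 2 of the later fob1 deletion these values were 0.21, 0.20 and 0.58. The likeness of HXT4 to the first pair thus rested on that single array. The IMD2 probe set has a name ending that marks sharing, so its signal may not be of IMD2 alone. HXT1 and HXT4 were the members whose group means spanned at least 1 log2 unit. The correlations describe arrays that share strains and dates, and no test was made of them.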

How the data were processed

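The deposited intensity values per probe set come from RMA run by the authors (the submitters' processing notes name R 2.15.2). They lie on a linear scale from 10.4 to 39895. Whether both dates were normalized together is not given in the sources used here. Array medians ran from 1221 to 1268. Arrays have no read depth, and their number limits the precision. After dropping 51 control and 47 reporter probe sets, log2 of the other 5716 was fitted with limma 3.58.1 in R 4.3.3 as 9 group means over 27 arrays (18 residual degrees of freedom). Tests were two-sided, and p-values were adjusted by Benjamini-Hochberg per comparison. Alternatives covered normalization, dim probe sets, the prior, the arrays fitted, a replicate block and single arrays left out. Interactions subtract a change on 1 date from a change on the other, so a steady date difference cancels, but a date-dependent effect of eco1-W216G does not. The platform table gave 5498 probe sets 1 symbol, all matched to the R64 gene table, and 218 none. For genes with several probe sets the brightest was used. HXT6 and HXT16 had no probe set under their own symbol.

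The members and lists were chosen with earlier results of these data known. All members are named. From other lists up to 4 changed genes with the largest differences could be named, and HXT6 and HXT7 always. Transporter genes with probe sets marked as shared are named for that reason. The 3 best correlated genes are named for members spanning 1 log2 unit. The fit was tested on simulated data. Deviations of same-numbered cultures correlated above 0.1 in every pair for eco1-W216G added to the rad61 deletion (0.316 to 0.381) and to the fob1 deletion (0.347 to 0.636), for the rad61 against the fob1 deletion (0.114 to 0.569) and for the fob1 deletion within the REC8 mcd1 strains (0.142 to 0.553), so there the numbers may pair cultures. The main tests did not use such a pairing. The replicate block, an alternative only, was shared by all 9 groups and both dates.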

Additional observations from a re-analysis of the deposited data

Results flagged for a closer look

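The change made by eco1-W216G on the later date, in wild type, differed from that on the earlier date, in a deletion background, for 2 members, by the interaction term of limma's model. For HXT1 the difference between changes was 1.41 in the fob1 deletion and 0.56 in the rad61 deletion, and both interactions passed in every one of the 19 and 20 alternative settings and omissions run for them. For HXT5 it was -0.92 in the rad61 deletion, a call that passed in 10 of 19. Background and date cannot be told apart in these terms.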

How the results depend on the processing

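The fall of HXT1 in eco1-W216G kept its call in all 13 alternatives (-1.28 to -1.21), and in the rad61 background in all 14 (-0.74 to -0.60). So did HXT5, HXT10, SNF3 and STD1 in eco1-W216G against wild type, where they were tested. Without the 1143 dim probe sets, 4 members (HXT5, HXT10, RGT2 and MTH1) are not tested, and that comparison held 3 changed members, with 5 to 7 when single arrays were left out. The fob1 deletion against wild type held 0 with only the compared arrays in the model, 2 with replicate number as a block, 2 without both rad61 replicate 2 and later fob1 replicate 2, and 0 to 3 without single arrays (3 without fob1 replicate 3, 2 without fob1 replicate 1, 0 without wild-type replicate 3). For eco1-W216G in the rad61 deletion it was 2 in each of these 3 settings. The double mutants differed in 2 members with quantile normalization repeated and 2 with the replicate block. For the fob1 deletion between dates, leaving out single arrays gave 0 to 3. The interaction with the fob1 deletion held 2 without dim probe sets, 2 with the trended and robust prior, 3 with only the arrays compared, 2 with the replicate block and 1 to 2 without single arrays. That with the rad61 deletion held 1 with quantile normalization repeated, 1 without dim probe sets, 4 with only the arrays compared and 1 to 2 without single arrays. The causes were not tested, beyond the members lost as dim. The replicate block changed no other count by over 1.5 times. Signs changed 18 times among 71 member values, none of them called. With quantile normalization repeated, MTH1 in eco1-W216G was at -0.20 and the RGT2 interaction with the rad61 deletion at 0.0091. Without both arrays named above, MTH1 in the fob1 deletion was at 0.34 and HXT3 with eco1-W216G in the rad61 deletion at 0.0050. Without single arrays, MTH1 ran from -0.13 to 0.25 in eco1-W216G and from -0.33 to 0.34 in the fob1 deletion, and HXT5 from -0.13 to 0.15 in the latter. With eco1-W216G in the fob1 deletion HXT4 ran from -0.0068 to 0.12 and RGT2 from -0.074 to 0.12. In the rad61 deletion HXT3 ran from -0.099 to 0.0050 and HXT5 from -0.21 to 0.072, and the RGT2 interaction from -0.14 to 0.018. The date could not be fitted as a random block, since the 9 groups already encode it. Median centring moved the median of all probe sets by at most 0.04.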
